A study of Homo sapiens with 18 samples.

Results

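The expression profile of HAP1 cells that lack both WAPL and SCC4 was compared with that of HAP1 cells that lack SCC4 alone. The comparison took every sample labelled with the double knockout and every sample labelled with the SCC4 knockout, 3 of each, 6 of the 18 samples of the series, and it covered all genes. HAP1 is a near-haploid human cell line. The *ΔWAPL* cells carry a blasticidin cassette inserted in *WAPL* and the *ΔSCC4* cells a puromycin cassette inserted in *SCC4* (*MAU2*). The *ΔWAPL*/*ΔSCC4* cells were made by knocking out *SCC4* in *ΔWAPL* clone 3.3, whereas the *ΔSCC4* cells came from HAP1 cells with intact *WAPL*. Each knockout line is a clone. Both groups thus share the loss of SCC4 and differ in *WAPL*, but they also differ in the clone they descend from, and the effect of WAPL loss and the effect of the clone cannot be told apart. The other 12 samples, which give the background below, were 3 controls and 3 *ΔWAPL* clone 3.3 samples of set A, and 3 controls and 3 *ΔWAPL* clone 1.14 samples of set B. Nothing in the labels says that replicates were separate cultures, so p-values measure only the spread between these samples, which may be technical.

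Cohesin is a ring-shaped complex that holds DNA segments together and forms chromatin loops. The SCC2/SCC4 complex loads cohesin onto DNA and helps it to enlarge loops, and WAPL releases cohesin from DNA. The comparison therefore sets RNA levels in cells without the release factor beside those in cells with it, where both lack SCC4 and the clone differs too.

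The guide RNAs that directed the cut are shown because they fix where each gene was disrupted. The lower-case letters are the part of each designed guide that matches the genome, 5′ to 3′, and the capitals are the adjacent bases of the genome that Cas9 needs (the PAM). The WAPL guide matched chr10:88259864-88259882 (GRCh37, plus strand), in an exon of *WAPL*, which lies on the minus strand. The SCC4 guide matched chr19:19431849-19431867 (GRCh37, minus strand), in an exon of *MAU2*, which lies on the plus strand.
WAPL guide: cgttccatagtatcctgtaTGG
SCC4 guide: tacgggcctcgatgcgctgCGG

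*WAPL* RNA was lower in *ΔWAPL*/*ΔSCC4* cells but not absent. Levels are given as CPM, the reads on a gene scaled to the normalized library size, in the order of replicates 1, 2 and 3. *WAPL* was at 68.0, 87.3 and 100 CPM in *ΔSCC4* and at 41.0, 47.0 and 48.5 CPM in *ΔWAPL*/*ΔSCC4*. The groups did not overlap, and the log2 fold change was -0.90 ± 0.15 (SE, n = 3 per group), with an adjusted p of 0.000223 in edgeR's quasi-likelihood test with Benjamini-Hochberg adjustment over all genes. The two-sided exact permutation test of the 6 values gave p = 0.1, the smallest that 3 samples against 3 allow. Mean *WAPL* was 99.2 CPM in the controls and 43.7 CPM in *ΔWAPL* clone 3.3, the parent of the double knockout. *MAU2*, which encodes SCC4, was near 0 in both groups, at 0.975, 0.509 and 0.622 CPM in *ΔSCC4* and 0.91, 1.04 and 0.848 CPM in *ΔWAPL*/*ΔSCC4*, against a mean of 65.6 CPM in the controls of set A. The RNA of both target genes thus followed the labels. *NCAM2*, a neural adhesion gene named in the study of WAPL loss, had too few reads to be tested between these groups. Its means were 0.122 ± 0.0653 CPM (SD, n = 3) in *ΔSCC4* and 0.424 ± 0.133 CPM in *ΔWAPL*/*ΔSCC4*. It averaged 14.7 CPM in *ΔWAPL* clone 3.3 and 0.596 CPM in the controls. Its change here was tested against that in clone 3.3 as an interaction over the 12 samples of set A, described below. The interaction log2 fold change was -2.88 (edgeR quasi-likelihood adjusted p of 0.0367), with 5 reads in all in *ΔSCC4*.

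The 6 samples held between 10007646 and 17591399 reads on genes. The smallest library was *ΔSCC4* replicate 2, and all 3 *ΔWAPL*/*ΔSCC4* libraries were larger than all 3 *ΔSCC4* libraries. Replicates of a group differed from each other along the GC content of the genes. Spearman's rho across genes between GC content and the log2 difference of 2 replicates reached -0.755 within *ΔSCC4* and 0.623 within *ΔWAPL*/*ΔSCC4*, and for the fold change between the groups it was -0.199.

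Of 12604 genes tested, 3447 (27.3%) were differentially expressed at an adjusted p under 0.05, 1732 higher (13.7%) and 1715 lower (13.6%) in *ΔWAPL*/*ΔSCC4*. Most changes were small, with a median size of 0.65 on the log2 scale among these genes. At least a 2-fold change was seen for 461 of the higher and 454 of the lower genes (7.26% of all tested), and at least a 16-fold change for 40 and 41. The lowest and highest values of the groups did not overlap for 5204 genes (41.3%), of which 3246 passed the test. The number of differentially expressed genes fell to 2080 without *ΔSCC4* replicate 2 and to 2244 without *ΔWAPL*/*ΔSCC4* replicate 1.

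The largest rises were in genes that were almost silent in *ΔSCC4* cells. By rule they are the 12 largest among genes that passed the test, averaged 1 or more in log2 CPM and did not overlap between the groups, and the same holds for the 12 largest falls, so their direction and lack of overlap are not findings. *FZD10*, which encodes a receptor for WNT ligands, had no read in any *ΔSCC4* sample and was at 9.5, 8.17 and 10.3 CPM in *ΔWAPL*/*ΔSCC4*, at least 39.6-fold higher against a floor of 3 reads per library. *MT1M*, a metallothionein that binds heavy metals, was likewise at 0 in *ΔSCC4* and at 7.45, 4.18 and 6.33 CPM in *ΔWAPL*/*ΔSCC4*, at least 25.4-fold higher. Both genes were silent in one group and clearly transcribed in each sample of the other.

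*GABRA5*, a subunit of the GABA-A receptor for the inhibitory transmitter GABA, was at 0, 0 and 0.0691 CPM in *ΔSCC4* and at 15.2, 16.8 and 15.4 CPM in *ΔWAPL*/*ΔSCC4*. The low group held 1 read in all, which gives a ratio of 626 with a 95% counting interval from 112 to 24800. *S100A6*, a calcium-binding protein, was at 0.065, 0.204 and 0 CPM against 36.0, 29.2 and 34.6 CPM, a ratio of 441 with an interval from 151 to 2140. These intervals cover counting error only. *CD44*, a cell surface receptor for hyaluronan, was at 0.13, 0 and 0.0691 CPM in *ΔSCC4* and at 14.3, 13.4 and 14.4 CPM in *ΔWAPL*/*ΔSCC4*.

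*BMP7*, a ligand of the BMP branch of the TGF-beta family, was at 1.04, 0.814 and 0.898 CPM in *ΔSCC4* and at 77.9, 66.5 and 73.5 CPM in *ΔWAPL*/*ΔSCC4*. Its log2 fold change was 6.27 ± 0.19 (SE), with an adjusted p of 4.55e-13 in edgeR's quasi-likelihood test. *TMEM47*, a membrane protein of cell junctions, was at 3.64, 3.97 and 3.73 CPM against 115.6, 136.4 and 110.2 CPM, a log2 fold change of 5.0 ± 0.16. The spread between replicates of these genes was small beside the distance between the groups, but the rule that picked them favours this, so it is not a finding. Other rises were *SLC17A9* (log2 fold change 7.30), a transporter that loads ATP into vesicles, *HCLS1* (5.86), an actin-binding signalling protein of blood cells, *CGREF1* (4.86), and *TLR2* (4.64), a receptor for bacterial lipoproteins.

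Several of these genes were expressed in the controls, so that the double knockout was nearer to the control than *ΔSCC4* was. Mean *GABRA5* was 17.8 CPM in the controls of set A, *S100A6* 27.7 CPM and *SLC17A9* 16.4 CPM. *FZD10* and *BMP7* were lower in the controls than in *ΔWAPL* clone 3.3, at 0.953 and 13.4 CPM against 9.99 and 70.5 CPM. The clone was close to the 9.34 and 72.6 CPM of *ΔWAPL*/*ΔSCC4*. Both control means were above those of *ΔSCC4*, which had no *FZD10* read and averaged 0.918 CPM for *BMP7*. These pairs are set side by side without a test.

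The largest falls included genes of muscle, the germline and the matrix. *MYOM1*, a structural protein of the muscle M-band, was at 189.1, 199.3 and 198.3 CPM in *ΔSCC4* and at 1.42, 1.9 and 1.19 CPM in *ΔWAPL*/*ΔSCC4*, a log2 fold change of -7.02 ± 0.18 (edgeR quasi-likelihood adjusted p of 7.86e-14). *GTSF1*, a factor of the piRNA pathway that silences transposons in the germline, was at 136.4, 134.8 and 117.9 CPM against 2.45, 1.84 and 1.87 CPM, a log2 fold change of -5.98 ± 0.18. *TFPI2*, a protease inhibitor of the extracellular matrix, was at 9.17, 9.47 and 8.01 CPM in *ΔSCC4* and had no read in *ΔWAPL*/*ΔSCC4*, at least 50.8-fold lower. The rule that picked these 3 genes requires groups that do not overlap, so the distance between their groups is not a finding.

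*IRF8*, a transcription factor of blood cell development and the interferon response, was at 5.2, 4.78 and 4.15 CPM in *ΔSCC4* and at 0, 0.123 and 0.0565 CPM in *ΔWAPL*/*ΔSCC4*. With 3 reads in the low group, the ratio was 81.0 with a 95% counting interval from 27.3 to 396. *EPHA3*, a receptor for ephrins that guides axons, was at 48.2, 60.1 and 57.8 CPM against 0.796, 0.922 and 0.735 CPM. *AMBN*, an enamel matrix protein, was at 36.5, 32.4 and 31.4 CPM against 1.25, 1.11 and 1.19 CPM. The other 6 falls were *LGALS8* (log2 fold change -6.72), a galectin, *COL5A1* (-5.70), a fibrillar collagen chain, *CROT* (-5.66), a peroxisomal carnitine acyltransferase, *ZNF329* (-4.95), a zinc finger protein, *HCN4* (-4.93), the pacemaker channel, and *PAK6* (-4.75), a kinase.

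Not all of these falls were losses relative to the control. *COL5A1* averaged 0.061 CPM and *HCN4* 0.242 CPM in the controls of set A, against 4.4 and 4.38 CPM in *ΔSCC4* and 0.0789 and 0.134 CPM in *ΔWAPL*/*ΔSCC4*. *MYOM1* averaged 97.9 CPM in the controls and 5.18 CPM in *ΔWAPL* clone 3.3, and *GTSF1* 95.5 and 12.1 CPM. For those genes the line from which the double knockout was made was already low. Neither gene passed the threshold in clone 1.14. *MYOM1* averaged 77.0 CPM there and 85.1 CPM in the controls of set B, and *GTSF1* 97.5 and 91.2 CPM.

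**Figure D1:**
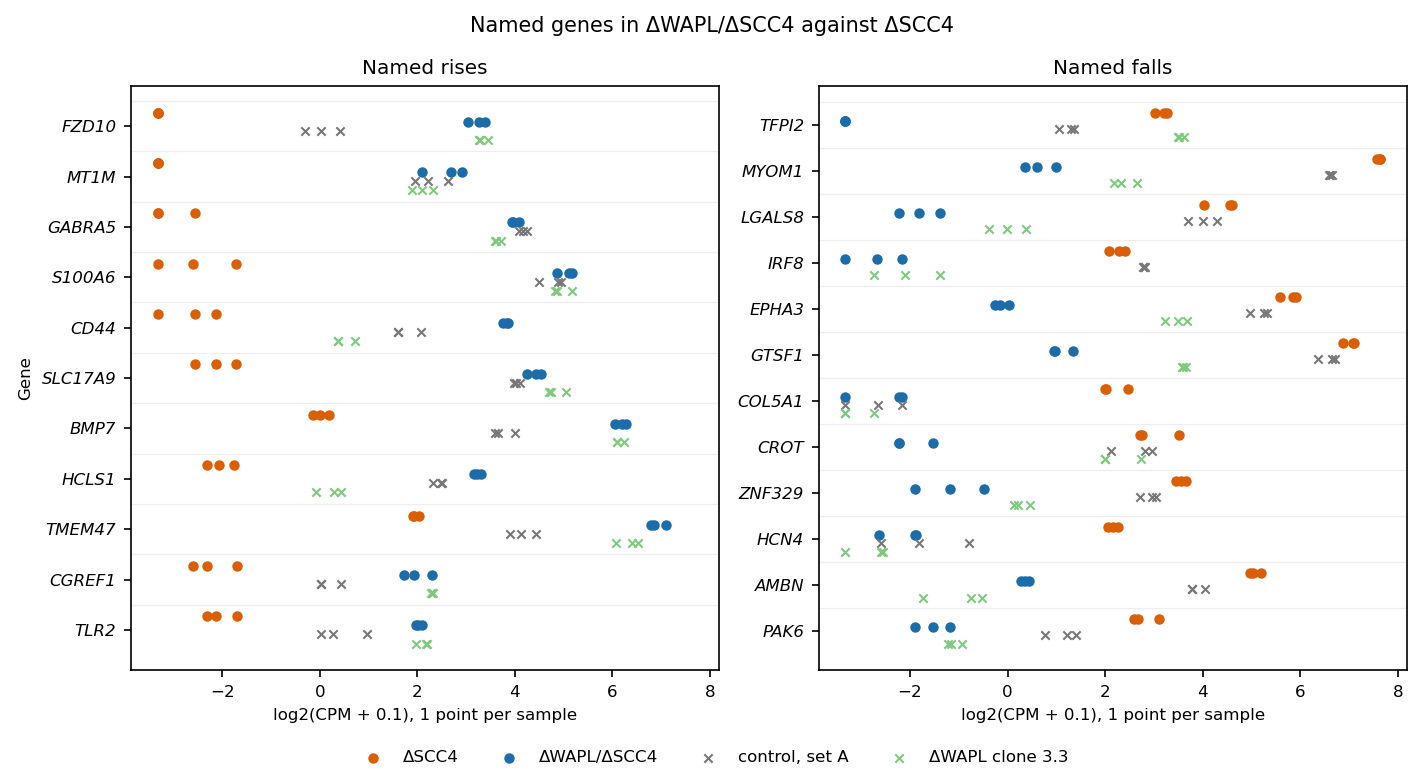
Levels of the named rises described here (left) and the 12 named falls (right) as log2(CPM + 0.1), 1 point per sample, for *ΔSCC4* (orange), *ΔWAPL*/*ΔSCC4* (blue), the controls of set A (grey crosses) and *ΔWAPL* clone 3.3 (green crosses). The orange and blue points are far apart for each gene, as the rule requires, while the crosses lie near one or the other, or between them.

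Promoter sequences from RefSeq (GRCh38.p14, 300 bases around the start, in the direction of the gene) are shown for genes at the ends of this range. *S100A6* and *TFPI2* switched between silence and expression in opposite directions, and *TMEM47* and *IRF8* also passed the threshold in the same direction in both *ΔWAPL* clones. Capitals mark CpG dinucleotides, the sites of DNA methylation. The windows held 31 CpG for *S100A6* (chr1:153535942-153536241, minus strand), 26 for *TFPI2* (chr7:93890704-93891003, minus strand), 45 for *TMEM47* (chrX:34657236-34657535, minus strand) and 3 for *IRF8* (chr16:85902580-85902879, plus strand). The median was 27 over the 10152 tested genes that have such a window, so these genes cover both CpG-rich and CpG-poor starts. The start that HAP1 cells use was not measured.
S100A6 promoter: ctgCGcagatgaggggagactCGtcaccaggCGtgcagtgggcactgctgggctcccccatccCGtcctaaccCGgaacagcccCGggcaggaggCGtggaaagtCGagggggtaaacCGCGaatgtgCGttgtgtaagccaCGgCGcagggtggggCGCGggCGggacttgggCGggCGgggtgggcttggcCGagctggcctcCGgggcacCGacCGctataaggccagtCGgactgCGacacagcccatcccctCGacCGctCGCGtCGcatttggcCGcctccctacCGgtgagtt
TFPI2 promoter: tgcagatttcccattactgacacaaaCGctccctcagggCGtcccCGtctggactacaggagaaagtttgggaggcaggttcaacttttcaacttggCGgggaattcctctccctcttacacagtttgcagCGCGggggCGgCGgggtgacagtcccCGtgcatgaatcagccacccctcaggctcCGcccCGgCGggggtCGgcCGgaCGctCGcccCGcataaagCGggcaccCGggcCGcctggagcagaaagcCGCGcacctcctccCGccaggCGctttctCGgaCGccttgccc
TMEM47 promoter: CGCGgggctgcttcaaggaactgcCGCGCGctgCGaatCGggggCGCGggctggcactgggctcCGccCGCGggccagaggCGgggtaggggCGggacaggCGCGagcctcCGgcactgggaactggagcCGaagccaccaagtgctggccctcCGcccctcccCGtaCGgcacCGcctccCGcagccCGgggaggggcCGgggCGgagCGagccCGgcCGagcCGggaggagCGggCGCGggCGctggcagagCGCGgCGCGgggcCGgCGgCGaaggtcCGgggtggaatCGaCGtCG
IRF8 promoter: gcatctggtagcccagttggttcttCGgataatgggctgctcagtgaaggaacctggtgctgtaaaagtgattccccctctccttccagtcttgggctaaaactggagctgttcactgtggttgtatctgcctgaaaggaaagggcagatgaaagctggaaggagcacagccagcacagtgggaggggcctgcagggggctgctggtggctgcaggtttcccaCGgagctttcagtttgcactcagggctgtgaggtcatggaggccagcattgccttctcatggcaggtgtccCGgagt

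The changes of cohesin genes were below 2-fold. Of 5 core subunits, *SMC1A* rose by a log2 fold change of 0.39 and *STAG1*, one of the alternative STAG subunits, fell by 0.79 on the log2 scale (20% each way, against 13.7% higher and 13.6% lower over all genes). *STAG1* was at 141.3, 166.1 and 156.2 CPM in *ΔSCC4* and at 79.5, 103.3 and 85.5 CPM in *ΔWAPL*/*ΔSCC4*, with no overlap. The call of *SMC1A* was lost when *ΔSCC4* replicate 1 or 2, or any *ΔWAPL*/*ΔSCC4* sample, was left out. Of 13 genes for loading, release, acetylation and cleavage, *WAPL* fell and *ESCO2*, a cohesin acetyltransferase, rose (log2 fold change 0.87), which is 7.69% each way. Of 14 condensin and SMC5/6 genes, *NCAPG2* (0.77), *NCAPD3* (0.52) and *SMC5* (0.43) rose and none fell (21.4% higher). The call of *SMC5* was lost in the fits over 12 and 18 samples and when *ΔSCC4* or *ΔWAPL*/*ΔSCC4* replicate 1 or 2 was left out.

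Genes of neural adhesion and axon guidance changed often, and fell more often than they rose. Of 60 tested members, 26 fell and 11 rose (43.3% and 18.3%, against 13.6% and 13.7% of all tested genes), and the median log2 fold change was -0.39, against -0.002 over all genes. Besides *EPHA3*, the related receptor *EPHA5* fell from 18.1, 23.5 and 16.9 CPM to 0.796, 0.369 and 0.961 CPM. *FLRT2* (log2 fold change -3.45), *ADGRL3* (-3.37) and *TENM2* (-2.41), whose proteins bind each other at synapses, fell as well, as did *NCAM1* (-1.89), *ROBO1* (-1.33) and *ROBO2* (-1.17). *CNTNAP2*, a contactin-associated protein of axons, moved the other way, from 2.99, 3.66 and 4.15 CPM to 52.8, 64.1 and 40.9 CPM. *NRXN3*, a presynaptic neurexin, rose from 1 read in all 3 samples to 0.853, 1.23 and 0.735 CPM, a ratio of 37 with a counting interval from 6.32 to 1490.

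Transcription factors of pluripotency and cell lineages also fell more often than they rose. Of 67 tested members, 23 fell and 8 rose (34.3% and 11.9%, against 13.6% and 13.7% of all tested genes). The median log2 fold change was -0.30. *ZFP42*, a marker of pluripotent cells, had 0.78, 1.22 and 0.691 CPM in *ΔSCC4* and no read in *ΔWAPL*/*ΔSCC4*, at least 5.13-fold lower. *EYA1* (log2 fold change -2.55), *PAX6* (-1.69) and *GATA6* (-1.52), regulators of organ formation in the embryo, fell. The rises were led by *TAL1*, a master regulator of blood formation, which went from 4.68, 4.68 and 3.8 CPM to 83.2, 80.4 and 84.0 CPM, a log2 fold change of 4.23 ± 0.16 (edgeR quasi-likelihood adjusted p of 4.35e-12). Its mean was 72.9 CPM in the controls of set A. Of 26 HOX genes, which set position along the body axis, 8 fell and 2 rose (30.8% and 7.69%), with a median of -0.36. *HOXB6* fell from 4.75, 4.68 and 4.01 CPM to 0.739, 0.307 and 0.905 CPM, while *HOXD11* (1.08) rose. The number of HOX genes that fell was 4 without *ΔSCC4* replicate 2 and 4 without *ΔWAPL*/*ΔSCC4* replicate 1.

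Markers of other cell types shifted beside these groups. The summed level of 11 neuronal markers lay between 22.0 and 31.1 CPM in *ΔSCC4* and between 6.39 and 8.29 CPM in *ΔWAPL*/*ΔSCC4*, with 2 of 11 at 0 in each group. Of the 4 tested, *MAP2* (log2 fold change -2.74) and *SYT1* (-2.55) fell and *NEFM* (1.59) rose. The summed level of 10 epithelial markers lay between 56.4 and 67.6 CPM in *ΔSCC4* and between 124.3 and 146.8 CPM in *ΔWAPL*/*ΔSCC4*, with 4 of 10 at 0 in each group, and all 4 tested members rose. *KRT8*, a keratin of simple epithelia, went from 3.51, 2.75 and 1.8 CPM to 51.5, 44.8 and 49.1 CPM. *KRT18* averaged 53.8 CPM in *ΔSCC4* and 73.6 CPM in *ΔWAPL*/*ΔSCC4*, so these keratins made up most of the epithelial sums. *MAP2* averaged 18.4 and 2.78 CPM and carried most of the fall of the neuronal sum. The sums thus rest on few genes. The call of *KRT18* was lost without *ΔSCC4* replicate 2 and without *ΔWAPL*/*ΔSCC4* replicate 1 or 3. That of *NEFM* was lost without *ΔSCC4* replicate 2 and with the GC offset and replicate block. Fibroblast markers summed to 44.3 to 58.1 CPM and 48.5 to 52.6 CPM, and hematopoietic markers to 15.0 to 20.1 CPM and 12 to 14.1 CPM, with 8 and 6 of 16 at 0. The part of these markers in the other changes was not tested. In bulk RNA, fewer cells of a type and less RNA per cell cannot be told apart.

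WNT signalling genes rose more often than they fell. Of 40 tested members, 11 rose and 3 fell (27.5% and 7.5%, against 13.7% and 13.6% of all tested genes). The median log2 fold change was only 0.04. Among the ligands, *WNT5A* rose from 0.715, 0.814 and 1.31 CPM to 18.1, 22.5 and 17.5 CPM, a log2 fold change of 4.33 ± 0.23, and *WNT7B* rose by 3.23. Among the receptors *FZD10*, *FZD9* (0.64), *FZD5* (0.55) and *ROR2* (0.87) rose. *RNF43*, a ubiquitin ligase that removes WNT receptors from the cell surface, rose by 2.13, whereas *AXIN2*, a feedback target of the pathway, fell by 0.41 on the log2 scale and the transcription factor *TCF7L2* fell by 0.64. The number that rose was 7 without *ΔSCC4* replicate 2.

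In the TGF-beta, BMP and activin list, 10 of 45 members rose and 7 fell (22.2% and 15.6%, median 0.10). The ligands *BMP7* and *BMP6* (2.11) rose, and *LTBP1*, which stores TGF-beta in the matrix, rose by 3.30. The ligand *GDF3* fell from 7.09, 6.72 and 6.63 CPM to 0.853, 1.11 and 0.565 CPM, and the BMP antagonist *NOG* fell (-0.92). Of the target genes, *ID1* rose (1.17) and *ID2* fell (-1.03). Ligands and targets thus moved in both directions.

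Extracellular matrix genes also changed often and in both directions, with 19 of 52 higher and 13 lower (36.5% and 25%, median 0.08). *THBS1*, an adhesive glycoprotein, rose from 0.195, 0.305 and 0.415 CPM to 4.21, 4.98 and 6.22 CPM. The laminin chain *LAMB1* (1.77) and the collagen chain *COL1A1* (1.36) rose, while *COL5A1*, the proteoglycan *VCAN* (-1.96) and the collagenase *MMP2* (-1.55) fell. The number that rose was 11 without *ΔSCC4* replicate 2. Targets of YAP and TEAD, which respond to cell contact and stretch, rose in 7 and fell in 5 of 18 cases (38.9% and 27.8%, median 0.20). The related matricellular genes *CCN1* (2.29) and *CCN2* (-1.37) went in opposite directions. Of 33 genes that respond to MAPK signalling, 3 rose and 4 fell (9.09% and 12.1%), and they included *ETV4* (1.52), *ETV1* (-2.45) and the cyclin *CCND1* (-0.97).

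**Figure D2:**
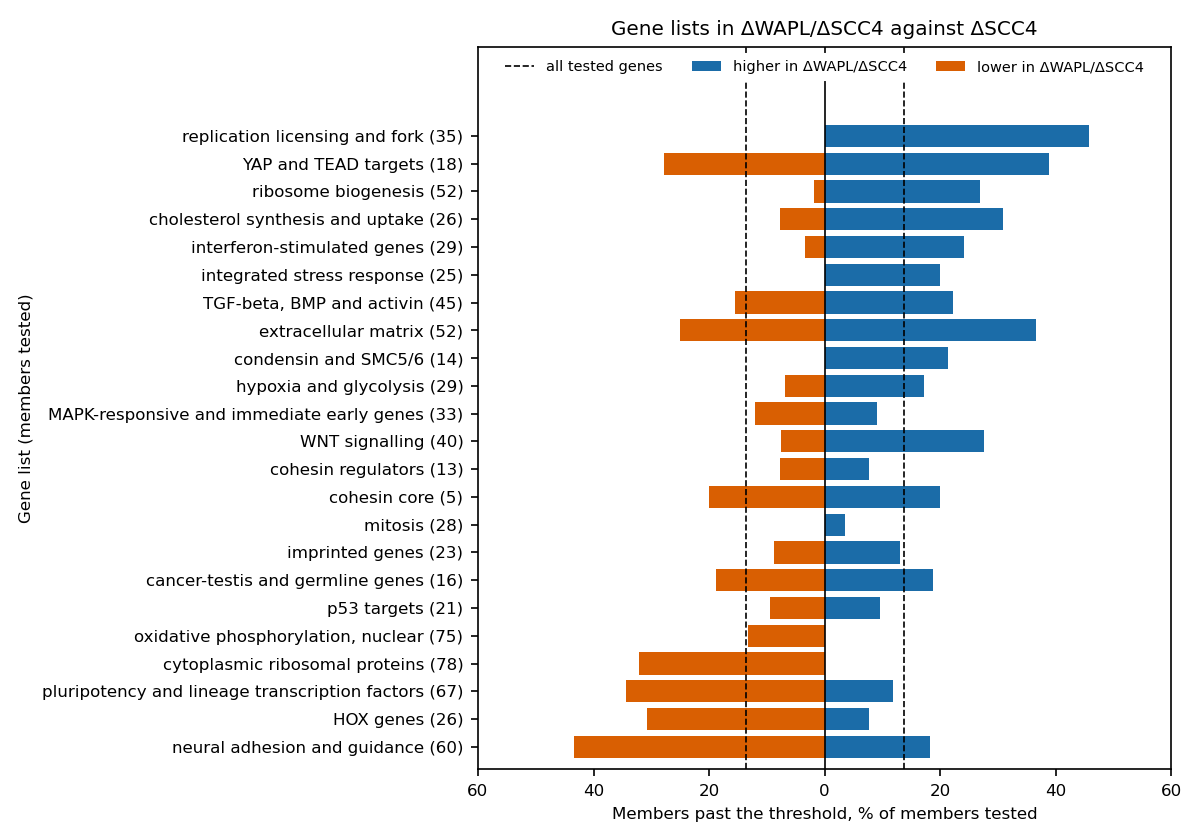
Share of the tested members of each gene list past the threshold, higher (blue, to the right) or lower (orange, to the left) in *ΔWAPL*/*ΔSCC4* than in *ΔSCC4*, with the number tested in brackets. Dashed lines are at the shares over all tested genes, 13.7% higher and 13.6% lower. Lists are ordered by their median log2 fold change, from replication licensing at the top (45.7% higher) to neural adhesion and guidance at the bottom (43.3% lower).

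Replication genes rose in small steps. Of 35 genes for replication licensing and the fork, 16 rose and none fell (45.7% against 13.7% of all genes), with a median of 0.33. *CDC6*, which loads the replicative helicase, rose from 77.8, 80.1 and 92.7 CPM to 127.8, 145.7 and 148.6 CPM, with no overlap and a log2 fold change of 0.75 ± 0.13 (edgeR quasi-likelihood adjusted p of 0.00029). *MCM10* (0.80), *ORC2* (0.59), *ORC6* (0.56), *MCM4* (0.54) and *PCNA* (0.42), which act at origins and forks, rose too. The mean of *CDC6* was 133.9 CPM and that of *MCM10* was 102.0 CPM in the controls of set A, near the 140.7 and 106.2 CPM of *ΔWAPL*/*ΔSCC4*. The number that rose was 7 without *ΔSCC4* replicate 2 and 9 without *ΔWAPL*/*ΔSCC4* replicate 1. Mitosis genes did not move with them, since 1 of 28 passed the threshold (3.57%), the checkpoint kinase *BUB1* (0.53), and the median was -0.01.

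Ribosome biogenesis and ribosomal protein genes moved apart. Of 52 biogenesis genes, 14 rose and 1 fell (26.9% and 1.92%, median 0.17), led by *BMS1* (0.79), *UTP15* (0.68) and *NIP7* (0.67), which process ribosomal RNA. Of 78 cytoplasmic ribosomal protein genes, none rose and 25 fell (32.1%, median -0.28), none by more than the 0.56 of *RPL10*. *RPL10* was at 2421.3, 2362.5 and 1924.5 CPM in *ΔSCC4* and at 1590.1, 1359.6 and 1599.2 CPM in *ΔWAPL*/*ΔSCC4*. Of 75 nuclear genes of oxidative phosphorylation, 10 fell and none rose (13.3%, near the 13.6% of all genes), with a median of -0.16. These small shifts depended on single samples. Without *ΔSCC4* replicate 2 the counts were 6 for biogenesis, 3 for ribosomal proteins and 1 for oxidative phosphorylation, and without *ΔSCC4* replicate 3 they were 50 for ribosomal proteins and 28 for oxidative phosphorylation. The GC content of the genes moved with the differences between replicates, and with an offset for GC content 47 ribosomal protein genes fell. Ribosomal protein genes have many near-identical pseudogenes, which makes their counts less certain.

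**Figure D3:**
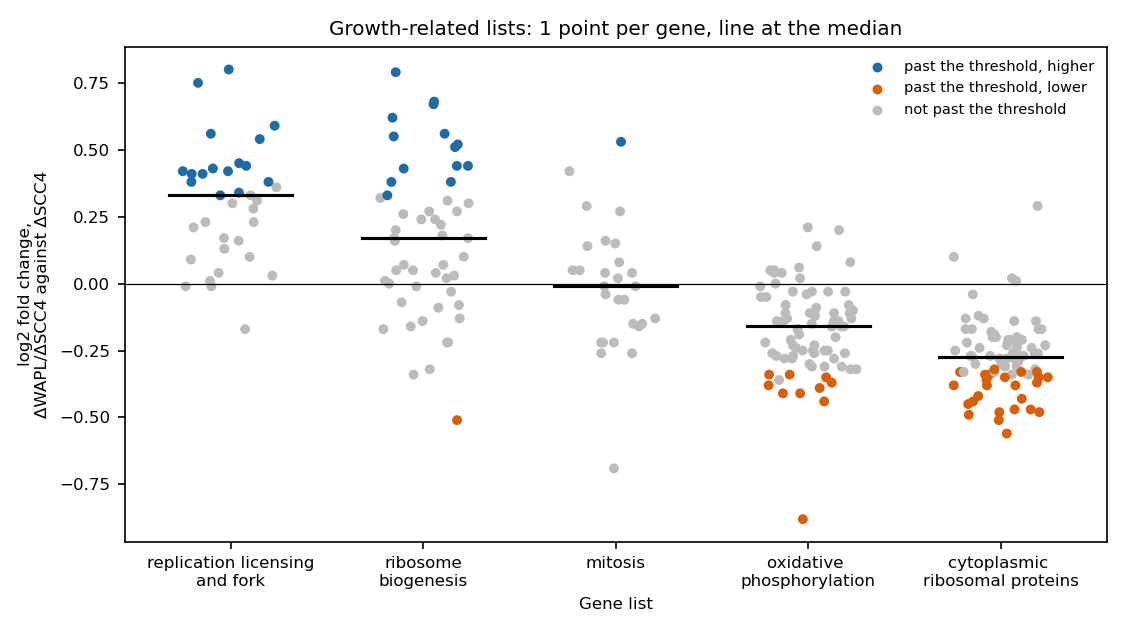
Log2 fold change of each tested member of 5 lists, *ΔWAPL*/*ΔSCC4* against *ΔSCC4*, with a line at the median (0.33 for replication licensing and fork, 0.17 for ribosome biogenesis, -0.01 for mitosis, -0.16 for oxidative phosphorylation and -0.28 for ribosomal proteins). Blue and orange points passed the threshold, grey points did not.

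Among stress and metabolic lists, cholesterol synthesis and uptake stood at 8 of 26 higher and 2 lower (30.8% and 7.69%, median 0.17). *MSMO1* (1.07), *HMGCS1* (0.72) and *CYP51A1* (0.65), enzymes of the sterol pathway, and *INSIG1* (1.05), its feedback regulator, rose, while *ABCG1* (-1.12), which exports cholesterol, fell. Of 29 interferon-stimulated genes, 7 rose and 1 fell (24.1% and 3.45%, median 0.16). *PSMB8*, a subunit of the immunoproteasome, rose from 4.94, 5.09 and 3.73 CPM to 51.9, 45.3 and 49.1 CPM, and *IFIT3* rose from 0.26, 0.102 and 0.345 CPM to 0.91, 1.66 and 1.07 CPM. The number that rose was 4 without *ΔWAPL*/*ΔSCC4* replicate 1. Of 29 hypoxia and glycolysis genes, 5 rose and 2 fell (17.2% and 6.9%). Of 25 genes of the integrated stress response, 5 rose and none fell (20%), but none passed without *ΔSCC4* replicate 2.

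Of 21 p53 target genes, 2 rose and 2 fell (9.52% each). The study states that the parental HAP1 cells carry mutant p53, and the part of p53 in these changes was not tested. *CDKN1A*, which encodes the cell cycle inhibitor p21, rose from 9.49, 8.45 and 5.73 CPM to 20.8, 20.9 and 19.8 CPM, a log2 fold change of 1.38, while *TP53I3* fell (-1.25). Of 23 imprinted genes, 3 rose and 2 fell (21.7% in all, against 27.3% of all tested genes), led by *MEST* (2.75) and *KCNQ1* (-1.95). The calls of the other imprinted rises, *PHLDA2* (0.81) and *INPP5F* (0.78), were lost without *ΔSCC4* replicate 2. Of 16 tested cancer-testis and germline genes, 3 rose and 3 fell (37.5% in all). *ACTL8*, a testis actin-like gene, fell from 78.5, 72.4 and 60.7 CPM to 2.73, 2.89 and 3.73 CPM, and *NLRP2*, a gene of the oocyte and early embryo, rose from 0.78, 0.814 and 0.415 CPM to 16.1, 14.4 and 17.0 CPM.

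The same genes were then compared with the effect of WAPL loss in cells with SCC4. Clone 3.3, the parent line of the double knockout, differed from the controls of set A in 1008 of 12489 genes (8.07%, 4.17% up and 3.9% down), and clone 1.14 differed from the controls of set B in 2536 of 12636 (20.1%, 8.7% up and 11.4% down). Neither comparison shares a sample with *ΔWAPL*/*ΔSCC4* against *ΔSCC4*. Of the genes tested in both, 370 passed the threshold in the same direction here and in clone 3.3, which is 11.2% of the genes called here and 39.2% of those called in the clone, and 203 passed in opposite directions. For clone 1.14, 418 passed in the same direction (12.5% and 17.3%) and 627 were opposite (18.8% and 25.9%). Spearman's rho across genes, which are not independent replicates, was 0.211 for clone 3.3 and -0.009 for clone 1.14.

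The direction of the named rises differed between the clones. Of the 12 rises, 7 also rose and 3 fell in clone 3.3, whereas 2 rose and 9 fell in clone 1.14. *S100A6* had a mean of 22.7 CPM in the controls of set B and no read in clone 1.14, and 30.9 CPM in clone 3.3. *TAL1* was at 54.4 and 2.71 CPM in the controls of set B and clone 1.14, and at 72.6 CPM in clone 3.3. Both genes were thus low in *ΔSCC4* and in one *ΔWAPL* clone, and not in the other clone. Of the 10 named falls tested in clone 3.3, 8 fell and 1 rose, and of the 10 tested in clone 1.14, 3 fell and 2 rose.

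A smaller set of genes moved the same way in all 3 comparisons, 97 up and 110 down of 12321 tested in each. *TMEM47*, described above, rose in each. *SLCO4C1*, an organic anion transporter, rose from 0.362 to 5.54 CPM here, from 0.701 to 4.41 CPM in clone 3.3 and from 1.19 to 7.66 CPM in clone 1.14 (group means), and *CADPS2*, a factor of vesicle release, rose from 0.515 to 3.61, 0.372 to 3.13 and 1.18 to 10.7 CPM. *IRF8*, *EPHA3*, *AMBN* and *DHRS2*, a mitochondrial reductase, fell in each. *AMBN* went from 33.4 to 1.18 CPM here, from 14.6 to 0.431 CPM in clone 3.3 and from 45.3 to 0.273 CPM in clone 1.14. By contrast, 99 genes rose here and fell in both clones, and 77 fell here and rose in both.

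The change in *ΔWAPL*/*ΔSCC4* against *ΔSCC4* was tested against the change in clone 3.3 against its controls as an interaction over the 12 samples of set A. It differed for 1453 of 12817 genes (11.3%), with 750 more positive here (5.85%) and 703 more negative (5.48%). *WNT5A* was among the former, with means of 24.3 CPM in the controls and 16.6 CPM in clone 3.3, and 0.947 CPM in *ΔSCC4* and 19.4 CPM in *ΔWAPL*/*ΔSCC4*. Its interaction log2 fold change was 4.91 (edgeR quasi-likelihood adjusted p of 5.85e-07). *EPHA5* was low in 3 of the 4 groups, at 0.951, 1.5 and 0.709 CPM in the controls, clone 3.3 and *ΔWAPL*/*ΔSCC4*, and high only in *ΔSCC4*, at 19.5 CPM.

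**Figure D4:**
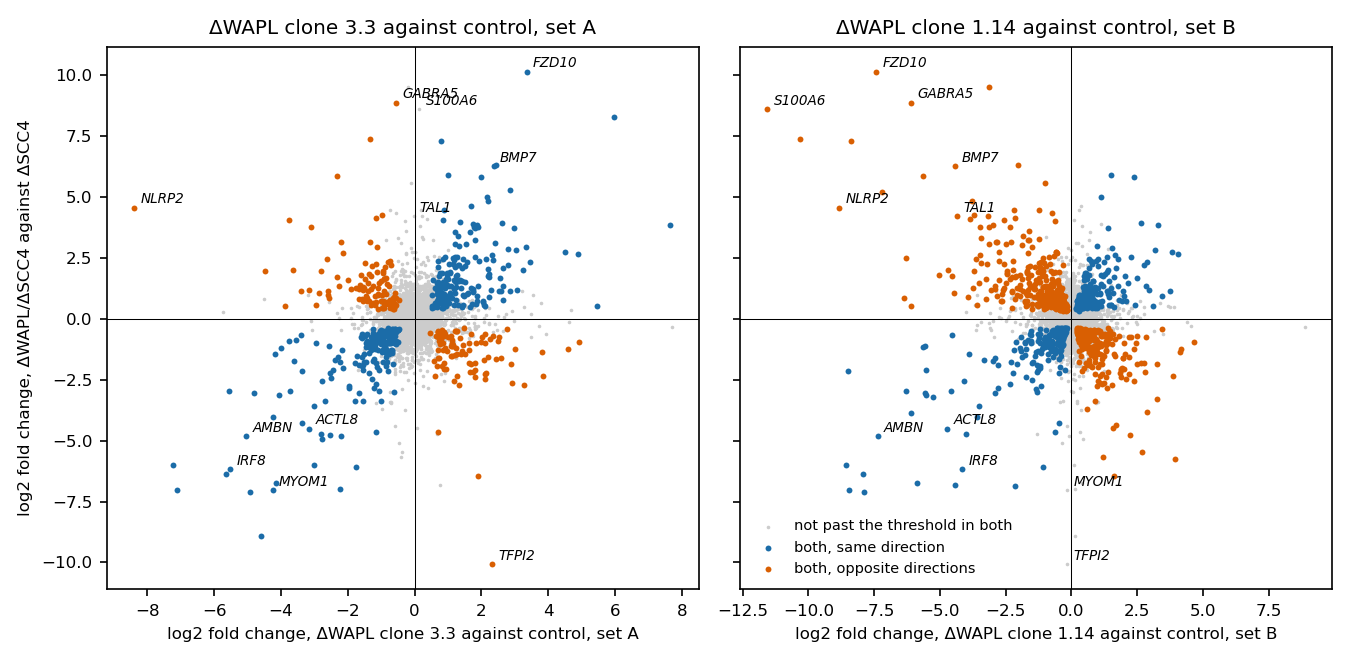
Log2 fold change of each gene in *ΔWAPL*/*ΔSCC4* against *ΔSCC4* (vertical) beside that in *ΔWAPL* clone 3.3 (left) and clone 1.14 (right) against their controls (horizontal). Blue genes passed the threshold in both in the same direction (370 and 418), orange genes in opposite directions (203 and 627), and *FZD10* and *BMP7* lie in the same quadrant for clone 3.3 and in opposite directions for clone 1.14.

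Changes were also laid along the chromosomes. The chromosome medians of the log2 fold change went no further from 0 than the -0.131 of chromosome 22. Among all windows of 51 neighbouring tested genes the lowest median, -0.40, was at the end of the long arm of chromosome 19, from *FIZ1* to *ZNF544* (GRCh37 chr19:56102742-58788861), a window picked after the values were seen and thus given as a description. In it 23 genes fell and none rose (13.6% and 13.7% over all genes), and 46 of the 51 fold changes were below 0. Zinc finger symbols made up 46 of the 51 genes and 22 of the 23 falls. Elsewhere on chromosome 19, 75 genes rose and 131 fell of 839, with a median of -0.06. The falls were steepest next to each other, for *ZNF256* (-2.08), *ZNF606* (-1.81), *ZSCAN18* (-3.73) and *ZNF329*. *ZSCAN18* went from 10.3, 9.87 and 10.2 CPM to 0.455, 1.04 and 0.792 CPM, and *ZNF329* from 10.9, 12.5 and 11.7 CPM to 0.341, 0.614 and 0.17 CPM. *ZNF329* and *ZNF256* also fell in clone 3.3, by 2.77 and 2.45 on the log2 scale. The log2 fold change there was 0.89 for *ZNF606* and -0.29 for *ZSCAN18*. The window as a whole had a median of 0.06 in clone 3.3 and 0.20 in clone 1.14. Between 17 and 23 of its genes fell when any of the 6 samples was left out. These genes share similar sequences, so their counts are less certain than those of single-copy genes.

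**Figure D5:**
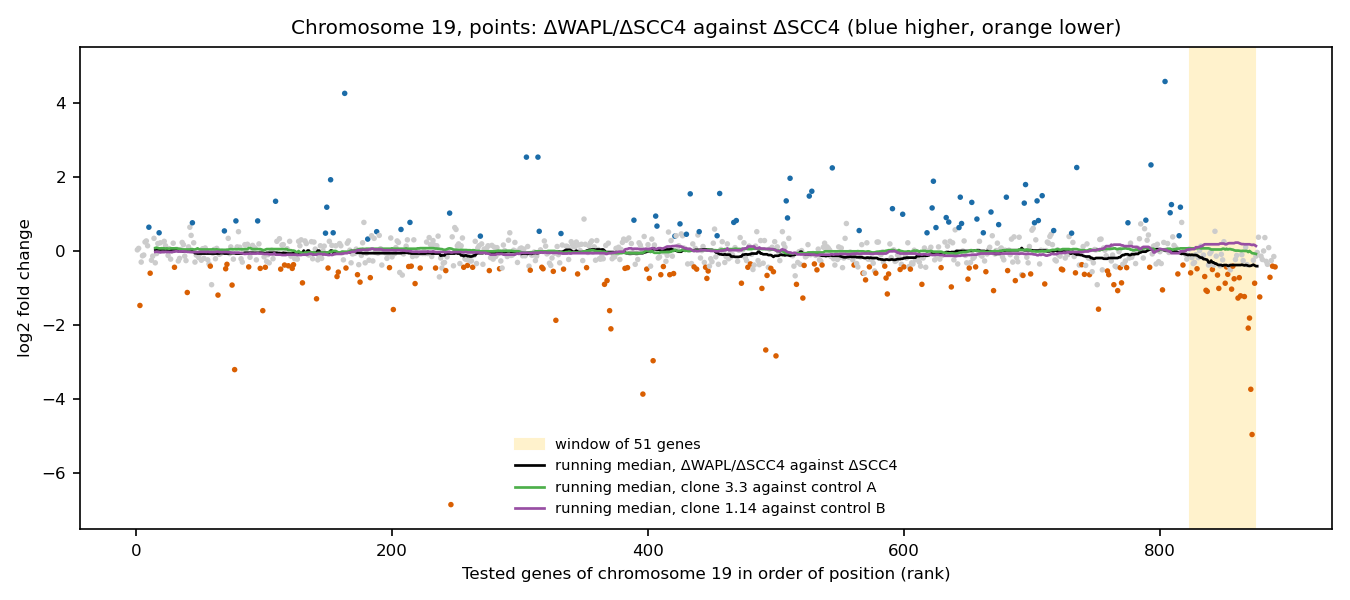
Log2 fold change of the tested genes of chromosome 19 in order of position, *ΔWAPL*/*ΔSCC4* against *ΔSCC4*, with genes past the threshold in blue (higher) or orange (lower). Lines are running medians over 51 genes for this comparison (black) and for clones 3.3 (green) and 1.14 (purple) against their controls. The black line drops to -0.40 in the shaded window, where the medians of the clones are 0.06 and 0.20.

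The longest runs of neighbouring tested genes that changed one way held 5 genes, and there were 4 of them. On chromosome 14 *JPH4*, *DHRS2*, *DHRS4*, *DHRS4L2* and *CARMIL3* fell, of which *DHRS2* fell most, from 54.9, 52.1 and 43.0 CPM to 2.05, 1.72 and 1.92 CPM. *DHRS4* and *DHRS4L2* are near-identical copies, and reads that aligned to both were not assigned to a gene, so their counts are less certain. On chromosome 7 *DNAJB9*, *IMMP2L*, *LRRN3*, *DOCK4* and *ZNF277* fell, led by *LRRN3* (-4.04), a neural leucine-rich repeat protein. On chromosome 16 *CMTM4*, *DYNC1LI2*, *NAE1*, *CA7* and *PDP2* rose, led by the carbonic anhydrase *CA7* (3.76). On chromosome 3 *SPICE1*, *SIDT1*, *USF3*, *NAA50* and *ATP6V1A* rose, led by *SIDT1* (2.44), a transporter of nucleic acids. In each run 1 gene changed more than its neighbours. The runs on chromosomes 14, 16 and 3 were broken under some alternatives, since *DHRS4*, *DYNC1LI2*, *USF3* and others lost their calls. *USF3*, for instance, had an adjusted p of 0.194 with DESeq2. The 5 genes on chromosome 7 kept their calls under each alternative that tested them. *LRRN3* was not tested with the filter of at least 10 counts in every sample.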

How the data were processed

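Polyadenylated RNA of HAP1 cells was sequenced from strand-specific libraries. The authors aligned the reads to hg19 and deposited raw counts of reads per gene, 1 file per sample, without normalization. The submitters' processing notes name TopHat2 2.0.9, HTSeq and DESeq2 1.10.1. The counts cover 20329 genes, and reads that aligned to more than 1 place were not assigned to a gene. The rows for reads without a gene, 4.8% to 6.09% of the reads per sample for those with no feature, were left out. Of the gene identifiers, 96.6% were found in the GRCh37 annotation used for positions.

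The deposited counts were tested with edgeR 4.0.16 (R 4.3.3), with TMM normalization, filterByExpr and the quasi-likelihood test, over the 6 samples compared, and p-values were adjusted by the Benjamini-Hochberg method. Library size set the precision, between 10007646 and 17591399 reads on genes. The difference from the effect in clone 3.3 was fitted as an interaction over the 12 samples of set A. The scripts were tested on simulated data with known changes.

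The genes, gene lists and the rule for named genes were chosen with earlier results of these data known. The rule names the target genes, *NCAM2*, the 12 largest rises and falls that averaged 1 or more in log2 CPM and did not overlap, up to 4 called members of each of 27 lists, the 4 largest interaction changes in each direction, the 4 largest changes in each direction shared by all 3 comparisons, and the longest runs. Further list members, and the genes of the chromosome 19 window, were named after their values were seen. Of 1075 list symbols, 1068 were matched to the files, older names included. Fitted fold changes against a group without reads depend on the prior count, so bounds against 3 reads per library are given for the comparison of the groups. Interaction values are given as fitted.

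Replicate numbers did not pair the samples of *ΔSCC4* and *ΔWAPL*/*ΔSCC4*, since same-numbered samples deviated with correlations of 0.31, 0.046 and -0.49. Same-numbered samples of *ΔSCC4* and the controls of set A gave 0.744, 0.157 and 0.682. Those of clone 3.3 and the same controls gave -0.565, -0.007 and -0.561. No 2 replicates held the same counts within sampling noise, with chi-square values per degree of freedom between 5.25 and 32.53. Alternatives were DESeq2 1.42.0, its size factors in edgeR, other filters, fits over 12 or 18 samples, the replicate number as a block, an offset for GC content, and leaving out each sample. A few items that the rule named are not reported here.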

Additional observations from a re-analysis of the deposited data

Results flagged for a closer look

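The change between *ΔWAPL*/*ΔSCC4* and *ΔSCC4* differed from the change between clone 3.3 and its controls, by a test of the difference itself, for 1453 genes. The largest positive differences as fitted on the log2 scale were those of *NLRP2* (12.93), *MT1M* (9.77), *GABRA5* (9.45) and *CD44* (8.74). *NLRP2* averaged 2.58 CPM in the controls and had no read in clone 3.3, while it averaged 0.67 CPM in *ΔSCC4* and 15.8 CPM in *ΔWAPL*/*ΔSCC4*. *CD44* averaged 3.33 CPM in the controls, 1.31 CPM in clone 3.3, 0.0664 CPM in *ΔSCC4* and 14 CPM in *ΔWAPL*/*ΔSCC4*. The largest negative fitted differences were those of *TFPI2* (-12.45), *HBB* (-7.97), *TLL1* (-5.80) and *EPHA5* (-5.40). *TFPI2* averaged 2.28 CPM in the controls and 11.6 CPM in clone 3.3, but 8.88 CPM in *ΔSCC4* and 0 in *ΔWAPL*/*ΔSCC4*. *HBB*, a globin gene with close paralogs, had no read in the controls of set A, 1.6 CPM in clone 3.3, 7.49 CPM in *ΔSCC4* and 5.94 CPM in *ΔWAPL*/*ΔSCC4*. *TLL1*, a metalloprotease of the matrix, averaged 0.517 CPM in the controls and 12.7 CPM in clone 3.3, but 2.89 CPM in *ΔSCC4* and 1.23 CPM in *ΔWAPL*/*ΔSCC4*. *NLRP2*, *MT1M*, *TFPI2* and *HBB* had no read in at least 1 group. The fitted values of these 4 genes, and their order among the largest, thus depend on the prior count and are no bounds. *GABRA5* and *CD44* held 1 and 3 reads in all in *ΔSCC4*, so their fitted values and order rest on very few reads too.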

How the results depend on the processing

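The number of genes past the threshold in *ΔWAPL*/*ΔSCC4* against *ΔSCC4*, 3447 as reported, was 3218 with DESeq2, 4023 without a filter and 2970 with at least 10 counts in every sample. Leaving out 1 sample gave from 2080 (*ΔSCC4* replicate 2) to 5020 (*ΔSCC4* replicate 3), and 915 genes also changed at least 2-fold. With an offset for GC content it was 5138. The replicate numbers did not pair the samples of these groups, and the replicate block gave 3341. The interaction count, 1453, was 3182 with the GC offset and 2855 with the GC offset and the replicate block, and from 1114 to 1747 with 1 sample left out. Genes shared in direction with clone 3.3, 370 as reported, were 662 in the fit over all 18 samples and 633 with the GC offset, and from 266 to 408 with 1 sample left out. Those shared with clone 1.14, 418, were 663 with the GC offset and from 280 to 681 with 1 sample left out, the highest without control replicate 3 of set B. The cause of these shifts was not tested. The log2 fold change of *WAPL* ranged from -1.04 to -0.77 with 1 sample left out and kept its call under each alternative run. Over the named genes and alternatives, 2058 values kept their direction and side of the threshold, 119 lost the threshold, 2 passed it where the reported value did not, and none reversed. The counts of list members past the threshold stayed within 1.5 times of those reported in 699 cases and moved further in 111. Library sizes limit what can be said of genes with few reads, such as *NCAM2*.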

Other observations

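The window of 51 neighbouring genes with the highest median was on chromosome 1, from *GFI1* to *TAF13*, over 16.68 Mb. In it 17 genes were higher and 4 lower (13.7% and 13.6% over all genes), with a median log2 fold change of 0.33. Beside the 4 runs of 5 genes there were 18 runs of 4 neighbouring tested genes that changed one way. One of them held *LRRC2*, *TDGF1*, *ALS2CL* and *PTH1R* on chromosome 3, with a median of 1.68, and another *CLDN1*, *IL1RAP*, *CCDC50* and *FGF12* on the same chromosome, with a median of 1.11. *KIT* and *PDGFRA*, neighbouring receptor genes on chromosome 4, fell together with *SRD5A3* and *TMEM165*, with a median of -0.66. That run was broken without *ΔSCC4* replicate 2 and without *ΔWAPL*/*ΔSCC4* replicate 1 or 3, since *KIT* lost its call. The window and these runs were picked after their values were seen and were not tested against chance.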
